A study of Mus musculus with 6 samples.

Results

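Sgk1, Sgk2 and Sgk3 encode the serum- and glucocorticoid-regulated kinases, and Nedd4, Nedd4l, Ndrg1 and Ndrg2 encode proteins that SGK kinases phosphorylate or relatives of such proteins. The 7 genes were found by symbol among the array's probes, and 17 of the 38467 probes, and 7 of the 19640 genes with a probe of exactly 1 symbol, belonged to them. Sgk3 had 6 probes, Sgk1 3, Nedd4, Nedd4l and Ndrg1 2 each, and Sgk2 and Ndrg2 1 each. The question was how their transcripts differed between C3H10T1/2 cells given 1 µM dexamethasone for 90 minutes (3 arrays) and the same cells given only the solvent DMSO, the vehicle (3 arrays, labelled with the same time). C3H10T1/2 is a mouse mesenchymal line that can form fat, muscle, bone or cartilage cells, and dexamethasone is a synthetic glucocorticoid. All cultures were grown in medium with serum. The series description calls them biological replicates. They came from a single cell line, so the p-values measure the spread between cultures of that line. Each array compared sample cDNA in Cy3 with a common RNA pool in Cy5. The sample labels describe the pool as RNA of DMSO, dexamethasone and myostatin cultures, while the series description names no myostatin.

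SGK kinases belong to the same kinase family as Akt. They are switched on downstream of phosphoinositide 3-kinase, by phosphorylation through the mTOR complex mTORC2 and the kinase PDK1. Sgk1 is itself controlled at the level of transcription and is a textbook glucocorticoid-induced gene, best known from kidney epithelium, where aldosterone and glucocorticoids induce it. There SGK1 phosphorylates the ubiquitin ligase encoded by Nedd4l, which then no longer removes the epithelial sodium channel from the cell surface. Phosphorylated NDRG1 is widely used as a readout of SGK1 activity. The arrays measured transcripts and not kinase activity or phosphorylation.

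All values are taken as log2 ratios to the pool, so they hold no level that can be set against another gene's. A difference is the dexamethasone mean minus the vehicle mean, and a fold is 2 to the power of its size. Which way the deposited ratio was taken is not stated. Sample over pool is called likely because 4 of 5 other textbook glucocorticoid targets (Dusp1, Fkbp5, Per1 and Tsc22d3, but not Zbtb16) read higher with dexamethasone that way. The differences were 4.26 for Dusp1, 3.93 for Fkbp5, 2.21 for Per1 and 1.95 for Tsc22d3, with all dexamethasone arrays above vehicle on each. Zbtb16 had no value on dexamethasone 3 and was at -0.40 ± 1.01 (SE). The direction is not settled. Vehicle 2 and dexamethasone 3, which share dyes and pool, had a Spearman correlation of -0.33 over all probes. Reversing every array alike would leave that correlation unchanged, so it cannot decide the direction. Were the ratio pool over sample, all that is described as higher would read lower by the same amount, and the reverse. Sgk1 is a target of the same kind but was not among the 5 used to choose the direction. That it reads higher with dexamethasone rests on sample over pool being right.

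The 6 arrays fell into 2 sets that cut across treatment. Dexamethasone 1, vehicle 1 and vehicle 2 correlated with each other (Spearman 0.40 to 0.55 over all probes), as did dexamethasone 2, dexamethasone 3 and vehicle 3 (0.34 to 0.57), while correlations between the sets ran from -0.33 to 0.07. These sets were seen in the data and are not in the labels. The set with vehicle 3 had more ratios equal to a ratio of whole numbers from 1 to 10 (10.5%, 12.7% and 7.73% of values, against 3.79%, 1.86% and 1.95%), as very dim spots give. The array medians were -0.12, 0.57 and 0.41 for dexamethasone 1 to 3 and -0.10, -0.12 and 0.16 for vehicle 1 to 3, so the median difference over all 27046 genes and unnamed probes tested was 0.32. Centring each array on its median brought it to 0.02. Of 12 mesenchymal markers, 11 had a probe free of dim, missing or extreme values on every array, against 3 of 11 measured markers of blood, endothelial and epithelial cells. A ratio to a pool of the same cells cannot show that a marker is absent. The mesenchymal list had a median difference of -0.43, with 10 of 12 below 0, and the other list one of 1.25, with 10 of 11 above 0. Their part in the results was not tested, and in bulk RNA fewer cells of a type cannot be told apart from less RNA per cell.

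Sgk1 carries, in 1 of the 6 promoter windows that RefSeq gives for its alternative start sites (mouse build GRCm38.p6), a full palindromic glucocorticoid response element, the sequence that the receptor dimer binds. The windows below span 250 bases before to 50 bases after a start site on the + strand. They are shown because Sgk1 was the member with the clearest difference. The upper window, chr10:21993640-21993939, holds the element in capitals. The lower one, chr10:21994416-21994715, is that of the most downstream start site. Its capitals mark the letters TATAAA, the TATA box motif, which begin 11 bases before that site. A further Sgk1 window, chr10:21991973-21992272, holds TATAAA 28 bases before its start site and is not shown.
Sgk1 window with the element: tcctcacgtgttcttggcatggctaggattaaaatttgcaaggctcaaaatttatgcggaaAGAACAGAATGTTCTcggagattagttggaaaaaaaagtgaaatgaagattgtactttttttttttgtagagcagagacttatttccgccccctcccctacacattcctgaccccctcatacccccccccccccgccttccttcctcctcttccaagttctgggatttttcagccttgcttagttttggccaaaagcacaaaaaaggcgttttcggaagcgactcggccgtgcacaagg
Sgk1 most downstream window: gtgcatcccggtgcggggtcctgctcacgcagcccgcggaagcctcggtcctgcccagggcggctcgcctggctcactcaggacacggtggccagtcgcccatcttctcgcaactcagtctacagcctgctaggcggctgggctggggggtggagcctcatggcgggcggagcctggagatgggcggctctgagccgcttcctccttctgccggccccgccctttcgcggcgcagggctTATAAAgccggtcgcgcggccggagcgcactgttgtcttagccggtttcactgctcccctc
The element, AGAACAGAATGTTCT at chr10:21993701-21993715, begins 189 bases before its own start site and 965 bases before the most downstream one. The motif searched was AGAACA and TGTTCT with any 3 bases between them, which reads the same on both strands, and 3 of 32851 promoter windows of the table (0.00913%) held it. The other windows belonged to Acnat2, with a difference of 1.89 (limma unadjusted p = 0.151), and Gm35041, which has no value here. Without the outer base pair, as GAACA and TGTTC with the same gap, the motif was found in 19 windows (0.0578%), and as GNACA and TGTNC, where N is any base, in 156 (0.475%). Its 6-base arm AGAACA, searched on both strands and in part the same bases, was in 19.0% of windows, and TATAAA in 13.6%. RefSeq windows were also searched for Nedd4 (2) and Ndrg2 (3), and the full element was in 0 of them. Apart from Sgk1 these were the only members searched, and 1 chromosome was left out of that search. A match describes these letters and shows no binding.

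Sgk1 had gene mean log2 ratios of 0.14, 1.18 and 1.52 on the dexamethasone arrays, against -0.92, -1.38 and 0.03 on the vehicle arrays (replicates 1 to 3 in turn). All dexamethasone values lay above all vehicle values. The means were 0.95 ± 0.72 and -0.76 ± 0.72 (SD, n = 3 each), a difference of 1.71 ± 0.54 (SE), or 3.26-fold, with a 95% interval from 0.32 to 3.09. In limma's fit over the whole table this did not pass (unadjusted p = 0.0251, Benjamini-Hochberg adjusted p = 0.732). The difference lay at the 88.7th percentile of all differences and 1.39 above their median. Within the array sets it was 1.29 (dexamethasone 1 against vehicle 1 and 2) and 1.32 (dexamethasone 2 and 3 against vehicle 3), and with the set as a block 1.31 ± 0.23 (SE; limma adjusted p = 0.452).

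The 3 Sgk1 probes differed in how far their arrays scattered. Probe mMC020746 read 0.66, 1.02 and 0.62 with dexamethasone, against -0.99, -0.93 and -1.04 with vehicle. Probe mMA031642 read 0.73, 0.17 and 0.17 with dexamethasone, against -1.15, -1.07 and -1.09 with vehicle. On both, the groups were far apart, and the vehicle arrays scattered by 0.06 and 0.04 (SD). The third, mMC003046, read -0.96, 2.36 and 3.77 with dexamethasone, against -0.61, -2.16 and 2.21 with vehicle, so its groups overlapped and its high values were those of dexamethasone 2, dexamethasone 3 and vehicle 3.

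Fitted one probe at a time, the differences were 1.75 ± 0.18 for mMC020746 and 1.46 ± 0.22 for mMA031642 (SE), which ranked 44th and 169th by p among 36465 probes. For mMC003046 the difference was 1.91 ± 1.69 (SE). The limma adjusted p were 0.146, 0.231 and 0.702, so no probe passed, as did none of the 36465 (0%). Of the 17 probes of the 7 genes, mMC020746 and mMA031642 were the 2 with an unadjusted p under 0.05, against 5.81% of all probes. These 2 and 1 Ndrg1 probe had all dexamethasone arrays above vehicle, against 8.8% of all probes. The annotation ties mMC003046 to 1 accession and the other probes to 8 accessions each, a RefSeq mRNA among them. Since all dexamethasone arrays lay above vehicle on both of the narrower probes, both were bound to be higher within each array set. The differences there were 1.62 and 1.85 for mMC020746 and 1.84 and 1.25 for mMA031642.

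Taking the median over the probes of each gene instead of the mean, a choice made after the probes were seen, gave Sgk1 values of 0.66, 1.02 and 0.62 with dexamethasone, against -0.99, -1.07 and -1.04 with vehicle. All dexamethasone values lay above vehicle, as for 8.55% of all. The difference was 1.80 ± 0.19 (SE), or 3.47-fold, with a 95% interval from 1.31 to 2.28 and a limma adjusted p of 0.173 in the fit of all 27046. Together with the removal of probes with a dim, missing or extreme value, which left 17152 genes and unnamed probes, the limma adjusted p was 0.0455, and Sgk1 was 1 of 32 called (0.187% of those tested), against 29 (0.169%) with the probe mean, where Sgk1 was not called (adjusted p = 0.574). That call was lost with the array set as a block (adjusted p = 0.155), with the arrays centred (0.0691) or quantile normalized (0.575), where the differences were 1.77, 1.67 and 2.02. It was also lost when any single array other than dexamethasone 1 was left out (adjusted p 0.107 to 0.475, against 0.0327 without dexamethasone 1), with differences of 1.67 to 1.87.

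**Figure D1:**
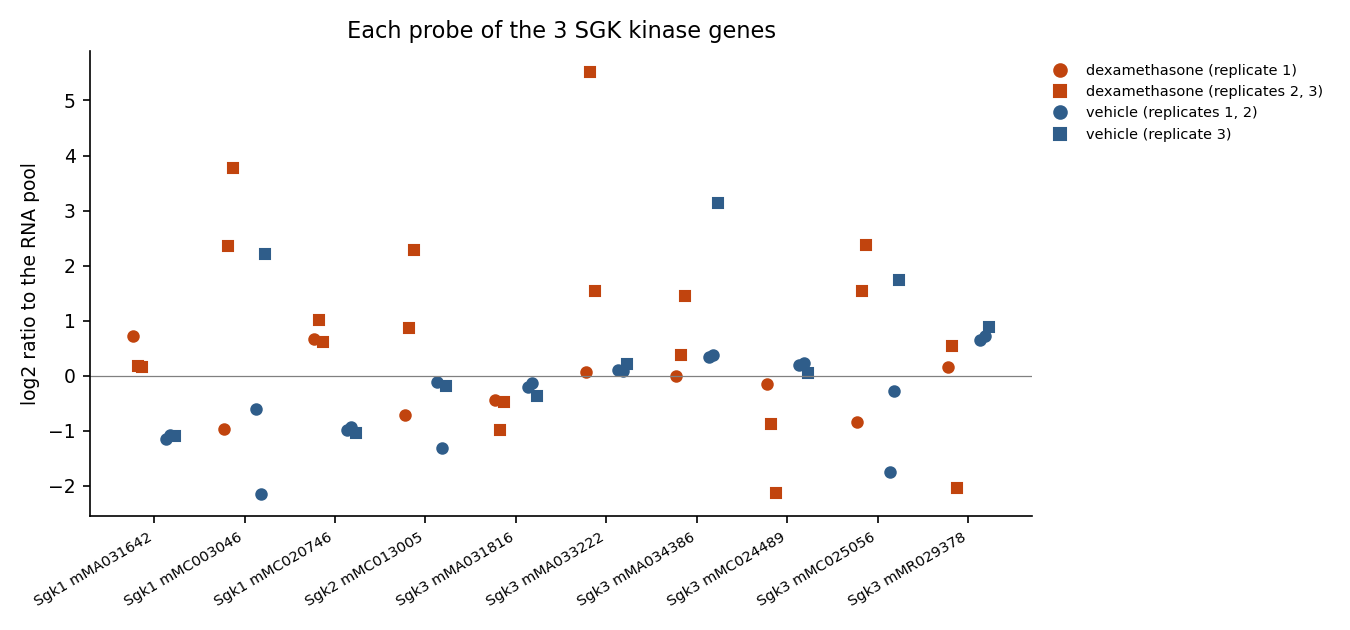
Log2 ratio to the RNA pool (vertical axis) for each probe of Sgk1, Sgk2 and Sgk3, 1 point per array, dexamethasone left of vehicle. Squares mark the array set of dexamethasone 2, dexamethasone 3 and vehicle 3. The vehicle arrays lie near -1 on Sgk1 probes mMA031642 and mMC020746, below all dexamethasone arrays, while mMC003046 spreads from -2.16 to 3.77.

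Sgk2, the least widely expressed kinase of the family, had 1 probe, which read -0.71, 0.87 and 2.29 with dexamethasone, against -0.12, -1.31 and -0.18 with vehicle. The groups overlapped, since dexamethasone 1 lay between the vehicle values. The difference was 1.35 ± 0.86 (SE), 2.55-fold, with an interval from -0.84 to 3.54 (limma adjusted p = 0.732). It was 0.001 in the set of dexamethasone 1 and 1.76 in the other set, and 0.61 without dexamethasone 3, 2.12 without dexamethasone 1 and 0.79 after quantile normalization.

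Sgk3, whose product is held at endosomes by a lipid-binding PX domain, had gene means of -0.20, 1.02 and 0.12 with dexamethasone, against -0.11, 0.17 and 0.94 with vehicle. They overlapped throughout, and the difference was -0.02 ± 0.46 (SE), with an interval from -1.19 to 1.14. Behind this mean, the 6 probes went opposite ways, from -1.21 to 2.23. On 3 of them all dexamethasone arrays lay below all vehicle arrays, against 7.17% of all 36465 probes. Probe mMC024489 read -0.15, -0.87 and -2.14 with dexamethasone, against 0.20, 0.24 and 0.04 with vehicle. Probe mMR029378 read 0.15, 0.53 and -2.03 with dexamethasone, against 0.66, 0.73 and 0.89 with vehicle, and mMA031816 read -0.45, -0.99 and -0.48, against -0.21, -0.13 and -0.36. Their differences were -1.21, -1.21 and -0.40, and the limma adjusted p was 0.694 for each.

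The other Sgk3 probes did not separate the groups. On mMA033222 dexamethasone 2 and 3 lay above the other arrays: dexamethasone read 0.06, 5.52 and 1.54, against 0.11, 0.09 and 0.22 with vehicle. On mMA034386 the highest value was vehicle 3: dexamethasone read -0.00, 0.39 and 1.45, against 0.35, 0.38 and 3.14 with vehicle. Probe mMC025056, tied to 2 accessions and no RefSeq mRNA, had the only dim value among the members' probes, on vehicle 3. With the median over probes, the Sgk3 difference was -0.002 ± 0.25 (SE), and the interval, -0.65 to 0.64, includes a change of up to about that size either way. Whether the probes read different Sgk3 transcripts was not tested.

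**Figure D2:**
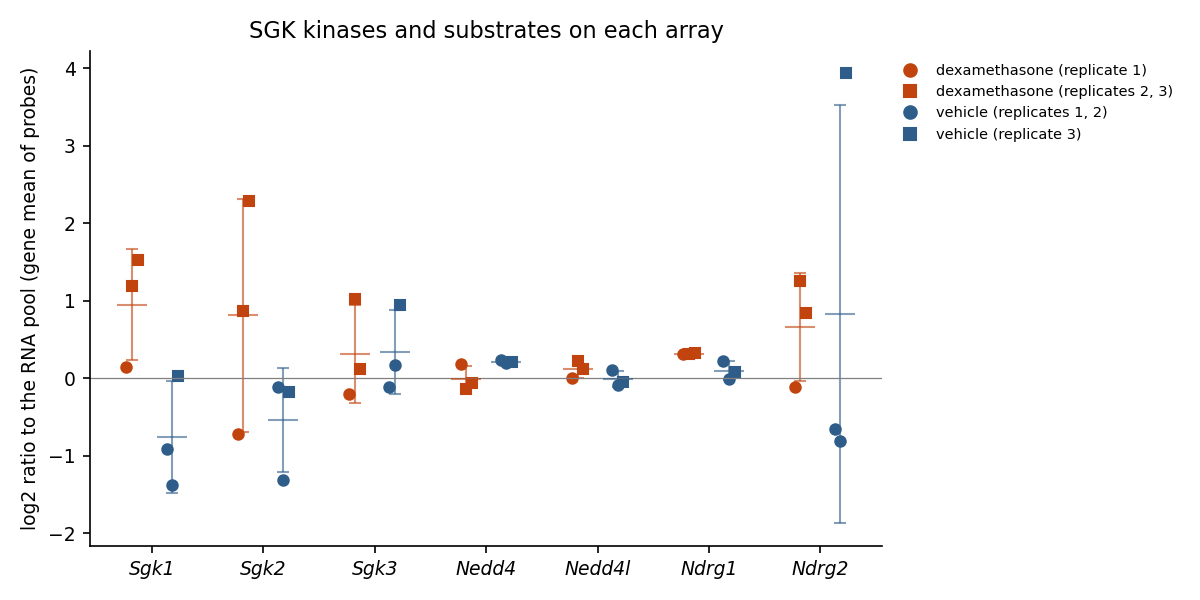
Log2 ratio to the RNA pool (vertical axis, mean over a gene's probes) for the 7 genes, 1 point per array, dexamethasone left of vehicle; lines show the mean and SD of 3 arrays, and squares mark dexamethasone 2, dexamethasone 3 and vehicle 3. Sgk1 and Ndrg1 have all dexamethasone arrays above the vehicle arrays and Nedd4 has them all below; Ndrg2 has vehicle 3 at 3.93.

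Nedd4, a ubiquitin ligase related to Nedd4l, had gene means of 0.18, -0.14 and -0.06 with dexamethasone, against 0.24, 0.19 and 0.21 with vehicle. Every dexamethasone value was lower, though dexamethasone 1 only just, and on each of the 2 probes alone the groups overlapped. The difference was -0.22 ± 0.18 (SE), with an interval from -0.68 to 0.24 (limma adjusted p = 0.732). It was -0.04 in the set of dexamethasone 1 and -0.31 in the other. With the arrays centred it was -0.53 ± 0.36 (SE) with overlapping groups, and after quantile normalization -0.72 ± 0.53 (SE). Nedd4l, the ligase through which SGK1 acts on the sodium channel, had gene means of -0.00, 0.23 and 0.12 with dexamethasone, against 0.10, -0.09 and -0.04 with vehicle. The groups overlapped, the difference was 0.13 ± 0.18 (SE), and the interval ran from -0.32 to 0.57. Its 2 probes differed by 0.01 and 0.24, and after centring the gene's difference was -0.18, so its sign depends on the scaling.

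Ndrg1, a stress- and differentiation-responsive protein whose phosphorylation reports SGK1 activity, had gene means of 0.31, 0.31 and 0.32 with dexamethasone, against 0.23, -0.01 and 0.08 with vehicle. The dexamethasone arrays scattered by 0.006 (SD) and lay all above the vehicle arrays, which scattered by 0.12 (SD). On each probe alone the dexamethasone arrays scattered more, by 0.07 for mMC017365 and 0.06 for mMC025239 (SD). They rose from replicate 1 to 3 on the former and fell on the latter, so the 0.006 comes from averaging. The gene mean difference was 0.22 ± 0.17 (SE), 1.16-fold, with an interval from -0.22 to 0.65 (limma adjusted p = 0.732). It was 0.20 and 0.24 within the array sets. Probe mMC017365 separated the groups (0.27, 0.33 and 0.41 with dexamethasone, against 0.17, -0.04 and 0.01 with vehicle). Probe mMC025239 did not (0.345, 0.294 and 0.232 with dexamethasone, against 0.282, 0.018 and 0.14 with vehicle). This direction rests on the scaling: with the arrays centred the Ndrg1 difference was -0.09 ± 0.31 (SE), and as deposited it lay 0.10 below the median difference of all genes and unnamed probes.

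Ndrg2, a relative of Ndrg1 that SGK1 also phosphorylates, had 1 probe, at -0.11, 1.26 and 0.84 with dexamethasone, against -0.65, -0.81 and 3.93 with vehicle. Vehicle 3 stood above all other arrays. The difference of -0.16 ± 1.43 (SE) was 1.39 without vehicle 3 (limma unadjusted p = 0.0464, adjusted p = 0.740). It was 0.62 in the set of dexamethasone 1 and -2.89 in the other set, so its sign changed with vehicle 3 and with the array set.

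Over the 7 genes, 0 passed limma's fit at an adjusted p under 0.05, as did 0 of the 27046 (0%). At an unadjusted p under 0.05, 1 of 7 (Sgk1) was found, against 5.43% of all genes and unnamed probes (4.43% higher and 0.995% lower). Sgk1 and Ndrg1 had all dexamethasone arrays above vehicle, against 8.42% of all, and Nedd4 had all of them below, against 6.16%. Were the ratio the other way round, Nedd4 would be above and Sgk1 and Ndrg1 below. After centring, Sgk1 alone of the 7 kept groups apart, against 8.09% of all with groups apart and 4.71% with all dexamethasone arrays above, and its difference was 1.40 ± 0.42 (SE). The median difference of the 7 was 0.13, below the 0.32 of all, and 4 of 7 were above 0, against 68.2% of all (2 of 7 after centring). For a single gene with 3 against 3 arrays an exact permutation test cannot give a p below 0.1, the value it gave for Sgk1, Nedd4 and Ndrg1.

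**Figure D3:**
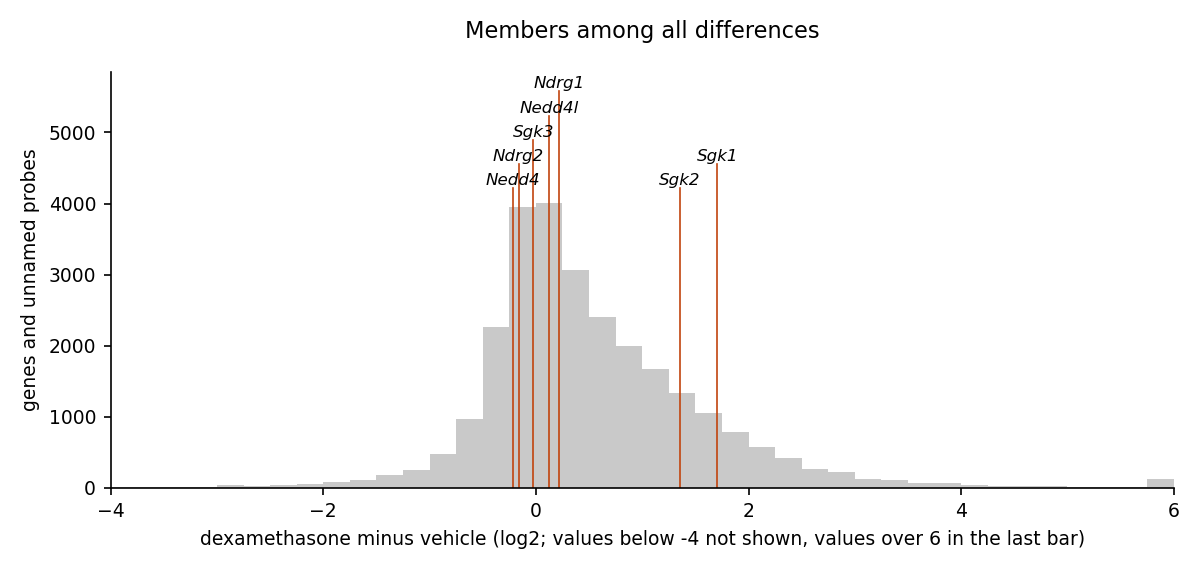
Counts of genes and unnamed probes (vertical axis) by their dexamethasone minus vehicle difference in log2 units (horizontal axis), with a line for each of the 7 genes. Sgk1 (1.71) and Sgk2 (1.35) lie in the right shoulder, and the other 5 genes lie between -0.22 and 0.22.

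**Figure D4:**
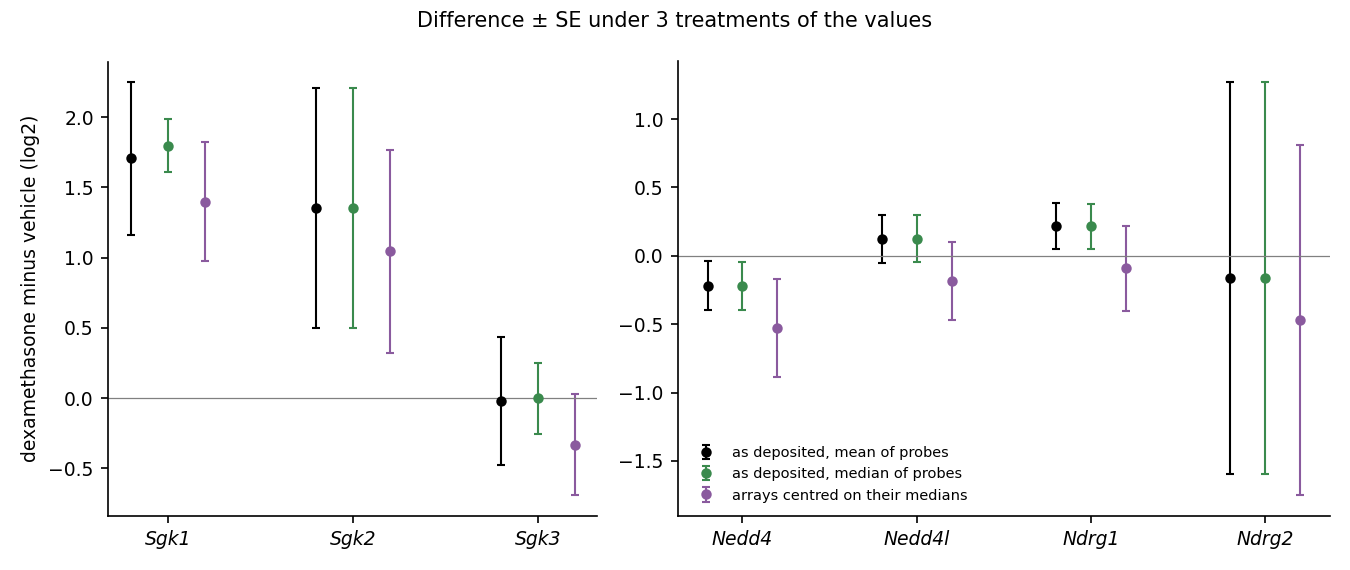
Dexamethasone minus vehicle difference in log2 units with its SE for each gene, with the mean or the median over its probes as deposited and with the arrays centred on their medians; the panels have different vertical scales. Sgk1 lies above 0 in each, with the smallest SE for the probe median (0.19), while Nedd4l and Ndrg1 change sign on centring.

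The rest of the pathway was read from 6 lists of 64 genes, of which 56 were measured. None passed limma's fit at an adjusted p under 0.05. At an unadjusted p under 0.05, 4 were higher and 0 lower, 7.14% of the 56 against 5.43% of all, and groups did not overlap for 13 (23.2%, 7 above and 6 below, against 14.6% of all). Were the ratio the other way round, these 4 would be the lower ones. The median difference was 0.20, and -0.11 after centring. The 4 were Wnk4, Foxo3, Pik3r1 and Slc1a5.

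Among 10 other SGK substrates, 2 were higher at an unadjusted p under 0.05, against 4.43% of all, and the list's median was 0.14 (-0.17 after centring). Wnk4, a kinase that regulates sodium reabsorption in the kidney and is itself phosphorylated by SGK1, read 0.63, 0.57 and 0.98 with dexamethasone, against -0.63, -0.87 and -0.64 with vehicle. Its groups were far apart, with a difference of 1.44 ± 0.21 (SE), 2.72-fold, of 1.38 and 1.42 within the array sets (limma adjusted p = 0.273, and 0.0920 without dim probes). Foxo3, a forkhead factor that SGK and Akt kinases send out of the nucleus, read 0.42, 1.41 and 0.66 with dexamethasone, against -0.56, -0.71 and -0.33 with vehicle, a difference of 1.36 ± 0.32 (SE; limma adjusted p = 0.582). Pikfyve, a lipid kinase, had a difference of -0.53 ± 0.22 (SE), and the MAP kinase kinase gene Map2k4 one of 0.80 ± 0.46 (SE).

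Among 16 measured upstream activators and brakes, 1 was higher at that level (6.25%, against 4.43% of all), the groups of 6 did not overlap (37.5%, against 14.6% of all), and the median was 0.14 (-0.17 after centring). Pik3r1, the regulatory subunit of phosphoinositide 3-kinase, read 0.35, 0.72 and 0.82 with dexamethasone, against -0.52, -0.61 and -0.27 with vehicle, a difference of 1.10 ± 0.22 (SE; limma adjusted p = 0.440). Without dim probes, Pik3r1 was at 1.25 (limma adjusted p = 0.0668). Its catalytic partner gene Pik3cb was at -0.72 ± 0.29 (SE), Rictor, the defining subunit of mTORC2, at -0.38 ± 0.20 (SE), and Mapk7, a kinase reported to act on SGK1, at 0.51 ± 0.27 (SE). On Pik3cb and Rictor all dexamethasone arrays lay below the vehicle arrays, mostly through dexamethasone 2 and 3. These differences did not pass.

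Of 14 measured channels and transporters that SGK kinases regulate, 11 had a difference above 0, against 68.2% of all genes and unnamed probes. Their median was 0.60, against 0.32 of all (0.36 after centring, against 0.02), but only 6 had a probe free of dim values. The glutamine transporter gene Slc1a5 read 0.11, 0.98 and 1.52 with dexamethasone, against -0.22, -0.30 and -0.11 with vehicle, a difference of 1.08 ± 0.40 (SE; limma unadjusted p = 0.0420). Of the glucose transporter genes, Slc2a1 was at 0.87 ± 0.42 and Slc2a4, with no probe free of dim values, at -0.73 ± 0.35 (SE). The potassium channel subunit gene Kcne1 was at 1.94 ± 1.19 (SE). None passed.

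Among 8 NEDD4-family ligases and adaptors the median was 0.30, 0.02 after centring, and -0.13 over those with probes free of dim values. Wwp2 was the member whose groups did not overlap, at -0.21, -0.24 and -0.31 with dexamethasone, against 0.12, 0.11 and 0.04 with vehicle, a difference of -0.34 ± 0.16 (SE) that was -0.32 and -0.31 within the array sets. Itch (0.93 ± 0.47), Wwp1 (1.07 ± 0.84) and Hecw2 (1.74 ± 1.40, SE) had overlapping groups. The other NDRG genes, Ndrg3 and Ndrg4, were at -0.05 ± 0.34 and -0.45 ± 0.23 (SE). Among 6 related AGC kinases measured, 0 had an unadjusted p under 0.05 (median 0.09, and -0.22 after centring), with Prkaca at 0.36 ± 0.24, Akt1 at 0.24 ± 0.20 and Rps6kb2 at 0.29 ± 0.67 (SE). After centring Prkaca was at 0.05, Akt1 at -0.06 and Rps6kb2 at -0.02. The Akt2 difference of -12.8 came from an impossible mean of -38.4 on dexamethasone 2, and without dim or extreme values it was -0.37.

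**Figure D5:**
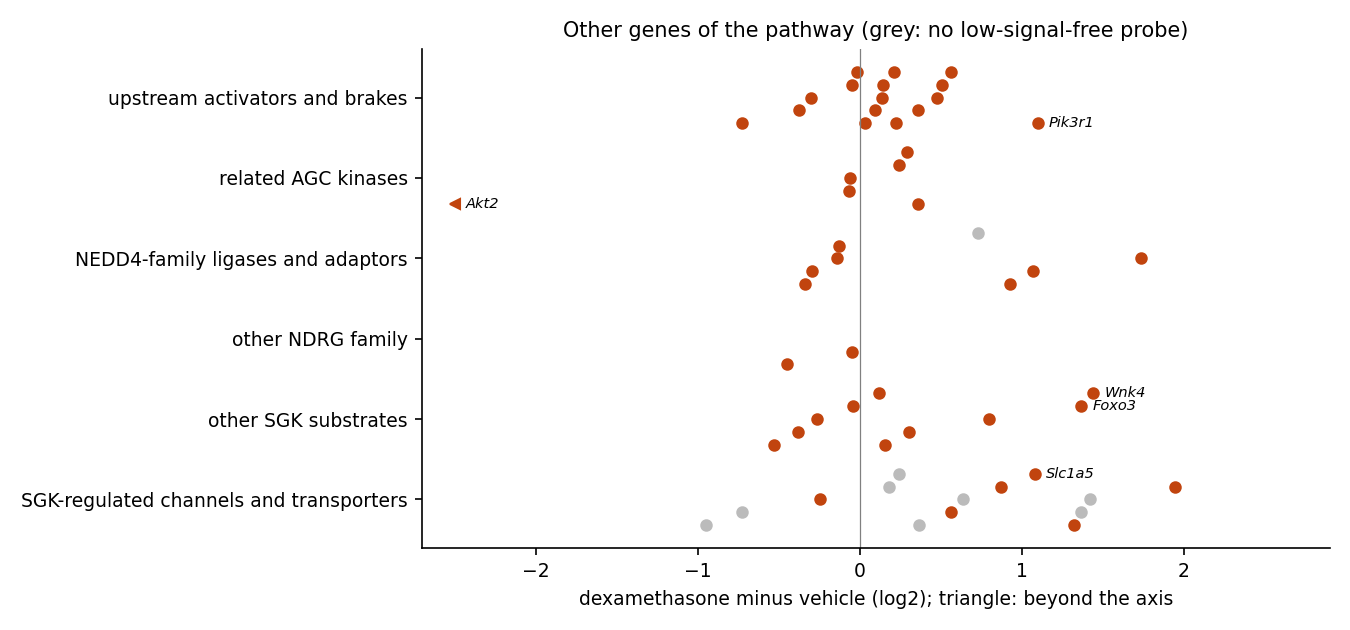
Dexamethasone minus vehicle difference in log2 units (horizontal axis) for the 56 measured genes of 6 pathway lists, 1 point per gene; grey points have no probe free of dim, missing or extreme values, and names mark an unadjusted p under 0.05 or a value beyond the axis. Wnk4, Foxo3, Pik3r1 and Slc1a5, named for their p, all lie above 1, as do Kcne1, Hecw2 and others that are not named. Akt2 (-12.8) is named as beyond the axis, and the rest scatter on both sides of 0.

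The genes whose 6 array values lay nearest to those of Sgk1, by the root mean square difference of gene means among 16510 genes with values on all arrays, were C130021I20Rik (0.303), Prg4 (0.320), Lim2 (0.326), Gfi1 (0.326) and 9630002D21Rik (0.338). Prg4, the joint lubricant lubricin, read 0.43, 1.58 and 1.80 with dexamethasone, against -1.15, -0.92 and 0.22 with vehicle. Like the Sgk1 gene mean, it was higher on dexamethasone 2, dexamethasone 3 and vehicle 3 than on the other arrays of its group, a likeness it was chosen for.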

How the data were processed

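Transcripts of 6 samples were measured on dual-colour arrays. The submitters' processing notes name limma. How spots were corrected, normalized or filtered is not stated there. The deposited values were read as log2 ratios from their form (signed, 3 decimals). On 4 arrays a few deposited values exceed 100 in size, more than a log2 ratio can reach, so the unit of these deposited columns was recorded as a score. All 6 columns entered the fit as log2 ratios. Probes were named through the supplied platform annotation: 29456 had 1 symbol, 760 several and 8251 none. Probes of a gene were averaged, and genes needed 2 values per group. limma 3.58.1 in R 4.3.3 (lmFit and eBayes, unblocked, two-sided tests) was run over 27046 genes and unnamed probes. P-values were adjusted by Benjamini-Hochberg, with a threshold of 0.05, and the code was tested on simulated data. SE is the moderated standard error. The low-signal filter left out 15355 probes with, on at least 1 array, no value, a value beyond 10 in size, or a value equal to the log2 ratio of whole numbers up to 10 (a dim value). The number of arrays limits precision. The named genes are all 7 members, up to 4 per list with the smallest p, and the 5 nearest to Sgk1. Members and lists were chosen with earlier results of these data known. Alternatives were scaling, filters, blocks, weights, probe medians and leaving out arrays.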

Additional observations from a re-analysis of the deposited data

How the results depend on the processing

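The Sgk1 difference of 1.71 stayed above 0 under every alternative run, from 1.31 with the array set block to 2.11 without dexamethasone 1 among fits of the probe mean, and from 1.39 to 2.11 without 1 array. It passed only with low-signal probes removed and the probe median (1.80, limma adjusted p = 0.0455), where leaving out 1 array gave 1.67 to 1.87 (1.85 without dexamethasone 1, adjusted p = 0.0327) and 0 to 1 members called; the members called were 1 in that fit. Direction reversed for Nedd4l after centring (-0.18), quantile normalization (-0.16) and the filter with centring (-0.00417), for Ndrg1 after centring (-0.0918) and quantile normalization (-0.11), and with array weights for Sgk3 (0.32) and Ndrg2 (0.92). Without 1 array Sgk3 ran from -0.38 to 0.28 and Ndrg2 from -0.98 to 1.39. Sgk3 probes mMA033222 (2.23) and mMC025056 (1.13) went against its mean. The cause was not tested.

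Over the whole table, 0 calls became 5 with values required on all arrays, 29 with the low-signal filter, 10 with the filter and centring, 32 with the filter and probe medians and 11 with these and centring. Without 1 array the filtered counts ran from 0 to 934, and from 0 to 1002 with probe medians, the highest without dexamethasone 1 in both. With the replicate number as a block, the replicate block fit, Sgk1 differed by 1.71 ± 0.40 (SE; limma adjusted p = 0.664) and no member was called. The filtered probe-median call of Sgk1 was lost under that block (1.80, adjusted p = 0.521). The numbers do not pair the arrays: deviations of same-numbered arrays correlated at 0.30, -0.14 and 0.27 over 17152 genes and probes.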

Other observations

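With the median over probes, the genes nearest to Sgk1 across the 6 arrays were others, by a choice made after the Sgk1 probes were seen. Nrip1, a corepressor of nuclear receptors, read 0.78, 0.94 and 0.66 with dexamethasone, against -0.90, -0.97 and -0.97 with vehicle, a root mean square difference of 0.0827 from Sgk1. Fabp4, a fatty acid binding protein of fat cells, followed at 0.140, then Foxred2 at 0.150, Dok1, an adaptor of tyrosine kinase signalling, at 0.160 and Ctla2a at 0.168. In these 5 genes, as in the Sgk1 probe median, all dexamethasone arrays lay above 0 and all vehicle arrays below it. That follows from choosing the genes nearest to Sgk1. This is a description of 6 arrays, with no test.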
